A study of Mus musculus with 4 samples.

Results

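Transcripts of B cells and of MHC class II, 9 in all, were followed in mature natural killer (NK) cells of the mouse spleen. They comprise the B cell receptor and surface genes Cd79a, Cd79b, Ighm, Igkc and Ms4a1 and the class II genes Cd74, H2-Aa, H2-Ab1 and H2-Eb1, chosen by name as a check on other cells in the sort. All 9 were matched by Entrez gene number among the 26611 genes of the count table, and all 9 passed the filter on low counts. The tested cells came from 2 mice with a Tcf7 knock-out (KO) and the others from 2 wild-type (WT) mice, all of C57BL/6 background, with 1 library per animal. Tcf7 encodes the transcription factor Tcf-1, and the series asks what it does in NK cells. The labels give neither the age of the animals nor the design of the knock-out allele. Every library came from spleen cells sorted by flow cytometry as negative for TCRbeta and positive for NK1.1, NKp46, CD11b and KLRG1. That gate names no B cell surface protein.

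B cells carry a membrane immunoglobulin on their surface. It pairs 2 heavy chains with 2 light chains and signals through the CD79a and CD79b proteins. Plasma cells, which arise from B cells, secrete immunoglobulin in large amounts and transcribe its genes far more strongly. MHC class II molecules present peptides to CD4 T cells, and in mice they are made mainly by B cells, dendritic cells and macrophages, while resting NK cells are not known as a main source.

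The KO libraries held 28254693 (library 1) and 37384979 (library 2) counts, and the WT libraries 31860505 (library 1) and 40175537 (library 2). Tcf7 stood at 11.2 and 25.04 CPM (counts per 1000000, scaled between libraries by the TMM method of edgeR) in KO libraries 1 and 2, against 89.4 and 79.1 CPM in WT libraries 1 and 2. The KO libraries did not reach the WT level of this gene. The genes that mark the sort, Ncr1 (NKp46) and Klrb1c (NK1.1), were at 1509 to 1610 and 3835 to 4482 CPM in KO libraries and at 1556 to 1732 and 3594 to 4765 CPM in WT libraries. Libraries of the same number resembled each other more than those of the same genotype. The chi-square per degree of freedom between libraries was 68.7 for the pair numbered 1 and 37.3 for the pair numbered 2, against 288 within KO and 148 within WT. What a shared number stands for is not given in the labels. Results are therefore given for KO against WT and also by library number.

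Class II genes are switched on through a shared promoter element, in which an X box binds the RFX complex and a Y box binds NF-Y, with the coactivator CIITA joining them. RefSeq promoter sequences (GRCm38.p6, the assembly known as mm10) were at hand for H2-Aa, H2-Eb1 and Cd79a among the 9 members. The 2 class II promoters are shown because their genes had like patterns over the libraries. Each runs from 250 bases before the transcription start to 50 bases after it, 5′ to 3′ on the gene's strand, at chr17:34287774-34288073 (minus strand) for H2-Aa and chr17:34305617-34305916 (plus strand) for H2-Eb1. Capitals mark the letters GCAAC, searched as a core of the X box, and TGATTGG, searched as the Y box.
H2-Aa: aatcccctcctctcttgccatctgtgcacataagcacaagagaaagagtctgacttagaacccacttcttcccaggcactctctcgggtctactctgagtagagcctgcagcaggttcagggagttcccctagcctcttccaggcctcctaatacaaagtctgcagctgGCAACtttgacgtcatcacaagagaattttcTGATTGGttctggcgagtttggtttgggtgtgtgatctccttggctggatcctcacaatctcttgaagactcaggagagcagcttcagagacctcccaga
H2-Eb1: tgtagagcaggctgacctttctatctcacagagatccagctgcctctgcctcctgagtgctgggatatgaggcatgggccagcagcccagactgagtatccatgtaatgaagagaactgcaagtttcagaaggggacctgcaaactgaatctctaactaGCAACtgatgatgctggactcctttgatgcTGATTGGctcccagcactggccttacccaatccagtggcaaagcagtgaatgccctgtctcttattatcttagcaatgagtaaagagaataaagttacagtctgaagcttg
The Y box letters began 50 bases before the start in H2-Aa and 61 bases before it in H2-Eb1, with 26 and 25 bases between the 2 marked stretches. On either strand, TGATTGG was present in 7.82% of 32851 promoters of this length and GCAAC in 35.2%. GCAAC followed by TGATTGG within 40 bases was present in 0.353%. Of 11 other class II pathway genes with a promoter entry, 6 held TGATTGG and 3, H2-Oa, H2-Ob and H2-Eb2, held both in this order. The Cd79a promoter held neither. A match of letters describes the sequence and is no evidence of binding, and the letters were chosen with these sequences in view.

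**Figure D1:**
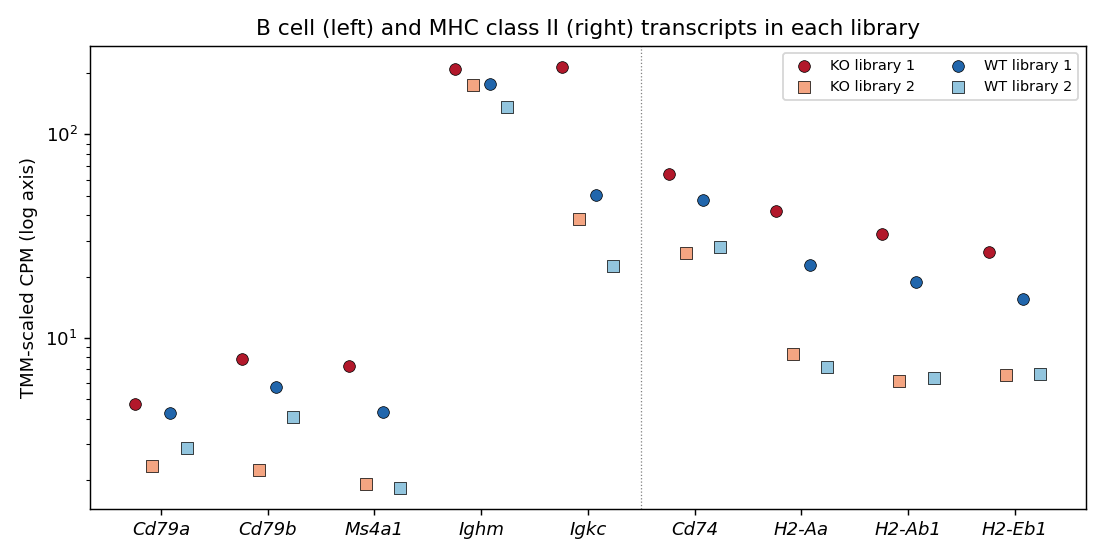
TMM-scaled CPM (log axis) of the 9 transcripts in each of the 4 libraries, with KO libraries left of WT libraries and library 1 as circles, library 2 as squares. KO library 1 is the highest point for all 9 genes, and the KO and WT points overlap for each of them.

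Among the receptor genes, Cd79a (mm10 chromosome 7, 24897497 to 24901858), which encodes the CD79a signalling chain, was counted 138 and 84 times in KO libraries 1 and 2 and 139 and 113 times in WT libraries 1 and 2. These counts correspond to 4.70 and 2.33 CPM in KO and 4.27 and 2.88 CPM in WT. Its partner Cd79b (chromosome 11, 106311341 to 106314562) stood at 7.87 and 2.25 CPM in KO libraries 1 and 2 and at 5.75 and 4.10 CPM in WT libraries 1 and 2. For both chains the 2 KO libraries lay outside the WT libraries, one above and one below. Ms4a1 (chromosome 19, 11249679 to 11266149), which encodes the B cell surface protein CD20, reached 7.29 and 1.91 CPM in KO libraries 1 and 2, against 4.34 and 1.83 CPM in WT libraries 1 and 2. Its levels parted by library number, with both libraries numbered 1 above both numbered 2, as they also were for Cd79a and Cd79b.

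The immunoglobulin genes were far more abundant. Ighm (chromosome 12, 113418826 to 113422730), the constant region of the IgM heavy chain, had 210.3 and 175 CPM in KO libraries 1 and 2 and 177 and 137 CPM in WT libraries 1 and 2. It varied least of the 9, and KO library 2 lay just under WT library 1. Igkc (chromosome 6, 70726435 to 70726754), the constant region of the kappa light chain, had 215 and 38.4 CPM in KO libraries 1 and 2, against 50.1 and 22.4 CPM in WT libraries 1 and 2. KO library 1 stood apart for Igkc, and KO library 2 lay between the 2 WT libraries.

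Cd74 (chromosome 18), the invariant chain that escorts class II molecules, had 63.8 and 26.1 CPM in KO libraries 1 and 2, against 47.7 and 28.0 CPM in WT libraries 1 and 2. H2-Aa (chromosome 17, 34282744 to 34287823), the alpha chain of the I-A molecule, had 42.2 and 8.32 CPM in KO libraries 1 and 2 and 22.9 and 7.18 CPM in WT libraries 1 and 2. H2-Ab1 (chromosome 17, 34263227 to 34269418), the I-A beta chain, had 32.4 and 6.16 CPM in KO libraries 1 and 2 and 18.8 and 6.34 CPM in WT libraries 1 and 2. The 3 genes shared one order of libraries in their upper part, KO library 1 and then WT library 1, as did the B cell genes above. H2-Eb1 (chromosome 17, 34305867 to 34316674), the beta chain of the I-E molecule, kept that order, with 26.4 and 6.54 CPM in KO libraries 1 and 2 and 15.5 and 6.62 CPM in WT libraries 1 and 2. H2-Ea, the alpha chain partner of H2-Eb1, which C57BL/6 mice are known not to express, was counted 0 times in all 4 libraries, which allows up to 0.0747 to 0.106 raw CPM (3 counts, counting error only).

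Per kilobase of gene length, the order of the levels was the same in KO library 2 and WT library 1 and differed at 1 place in each of the others. Igkc had 671 and 120.0 CPM per kb in KO libraries 1 and 2 and 157 and 70.1 CPM per kb in WT libraries 1 and 2. For Ighm these levels were 141 and 118 in KO and 119 and 91.7 in WT, so that Ighm stood above Igkc in WT library 2 alone. Cd74 followed at 18.4 to 45.1 CPM per kb in KO and 19.8 to 33.7 in WT, then H2-Aa, H2-Ab1 and H2-Eb1. Cd79b, Cd79a and Ms4a1 closed the order, and in KO library 1 Ms4a1 and Cd79a were nearly level, at 3.55 and 3.54. Ms4a1 was at 0.930 to 3.55 CPM per kb in KO and 0.891 to 2.11 in WT. Neighbours in this order overlapped in their ranges over the 4 libraries, except Ighm and Cd74, whose ranges were apart. In mean CPM over all libraries, Ighm lay at the 91.0th percentile of the 12723 genes tested and Cd79a at the 23.3rd.

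No member passed the test of KO against WT. edgeR's quasi-likelihood test called 0 of 9 members at a Benjamini-Hochberg adjusted p under 0.05 over all genes, where it called 0.0% of the 12723 genes tested. At an unadjusted p under 0.05 it also gave 0 of 9, against 2.84% of all genes. DESeq2 called 0 of 9, against 0.558% of all genes, and limma voom called 0 of 9. In DESeq2 Igkc was the 1 member at an unadjusted p under 0.05, against 3.12% of all genes. Tcf7 itself, with a log2 fold change of -2.22 (SE 0.45), was not called by edgeR either (unadjusted p = 0.0061). DESeq2 called Tcf7 (adjusted p = 0.0022). A lack of edgeR calls is therefore weak evidence about any gene here. None of the 9 had both KO libraries above both WT libraries, which 9.64% of the tested genes had, or both below, which 11.6% had. With 2 animals a group an exact permutation of the labels cannot give a p under 0.333.

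Igkc averaged 126 ± 125 CPM in KO and 36.3 ± 19.6 CPM in WT (SD, n = 2 each), with a log2 fold change of 1.80 (SE 0.92; edgeR adjusted p = 1.00). H2-Aa averaged 25.3 ± 23.9 CPM in KO and 15.04 ± 11.1 CPM in WT (SD, n = 2 each), a log2 fold change of 0.75 (SE 0.95). Ighm averaged 193 ± 24.7 CPM in KO and 157 ± 28.7 CPM in WT, a log2 fold change of 0.30 (SE 0.24), and Cd79a 3.52 ± 1.68 and 3.58 ± 0.99 CPM, a log2 fold change of -0.03 (SE 0.49; SD, n = 2 each). The wide standard errors leave changes in either direction possible, so a missed threshold does not show that the genotypes were alike. The median log2 fold change was 0.30 for the 5 B cell members and 0.60 for the 4 class II members, beside -0.01 for all genes tested. Both medians rested on KO library 1. Without it they were -0.62 and -0.80, only 2 of 9 members lay above 0, and the log2 fold change of Igkc was 0.08. Without WT library 2 the medians were 0.11 and 0.09, and without WT library 1 and KO library 2 in turn the class II median was 1.46 and 1.35.

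Split by library number, the KO libraries were higher for all 9 genes in the pair numbered 1 and for 4 of 9 in the pair numbered 2. Igkc was 4.27-fold higher in KO library 1 than in WT library 1 and 1.71-fold higher in KO library 2 than in WT library 2. In the pair numbered 1 it was the only member at least 2-fold higher in KO, which 4.22% of the genes tested were, and in the pair numbered 2 no member was, against 3.21%. H2-Aa had log2 ratios of KO to WT of 0.88 (95% counting interval 0.75 to 1.01) in the pair numbered 1 and 0.21 (-0.03 to 0.45) in the pair numbered 2. For Cd79b the 2 ratios pointed in opposite directions, 0.45 (0.17 to 0.74) and -0.84 (-1.27 to -0.47). Such intervals, exact binomial, cover counting error only and not the difference between animals. In bulk RNA, fewer cells of a type and less RNA per cell cannot be told apart.

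The library number divided these genes in both genotypes. All 9 were higher in library 1 than in library 2 of KO and in library 1 than in library 2 of WT. Of the 12723 genes tested, 5142 were also higher in library 1 in both genotypes, so the direction alone is common. Within KO, 7 of 9 were at least 2-fold higher in library 1, against 6.69% of the genes tested, and within WT 5 of 9, against 3.91%. Ms4a1, Igkc, H2-Aa, H2-Ab1 and H2-Eb1 passed 2-fold in both genotypes, against 2.44% of the genes tested. H2-Aa was 5.02-fold higher in library 1 within KO and 3.16-fold higher within WT, and H2-Ab1 5.20-fold and 2.93-fold. Ighm was the least divided, at 1.20-fold in KO and 1.30-fold in WT. With 1 library for each number and genotype these ratios have no replicate test.

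**Figure D2:**
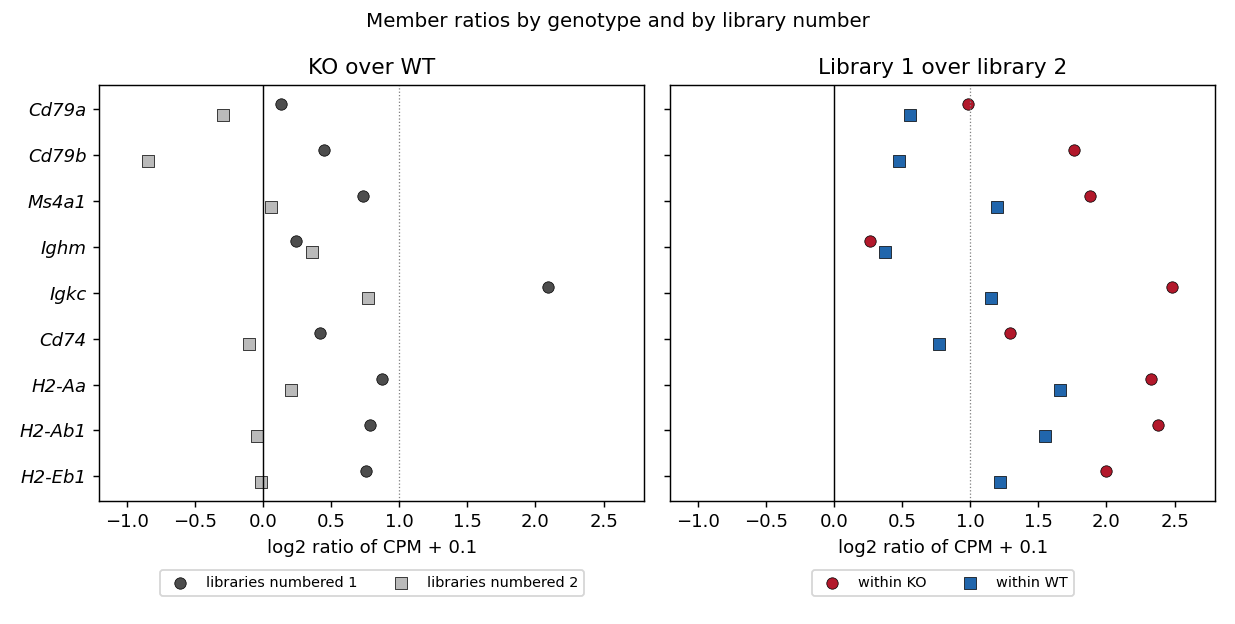
Log2 ratios of CPM plus 0.1 for each of the 9 genes: left, KO over WT in the libraries numbered 1 and those numbered 2; right, library 1 over library 2 within KO and within WT. The dotted line marks 2-fold; all 9 genes are right of 0 for library 1 over library 2 in both genotypes, while the ratios of KO to WT in the pair numbered 2 lie on both sides of 0.

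Ratios between genes inside one library, which need no scaling between libraries, showed which transcripts kept step. H2-Ab1 per H2-Aa, in counts per base of gene length, was 0.689 and 0.663 in KO libraries 1 and 2 and 0.734 and 0.791 in WT libraries 1 and 2. That ratio varied 1.19-fold over the libraries, the narrowest of the 13 ratios computed. Cd74 per H2-Aa did not hold, at 1.14 and 2.37 in KO libraries 1 and 2 and 1.57 and 2.94 in WT libraries 1 and 2, so the invariant chain was less divided by library number than the class II chains. Cd74 per Cd79a was steadier, between 10.49 and 12.7 in KO and between 9.12 and 10.47 in WT. H2-Aa per Cd79a was 11.1 and 4.43 in KO libraries 1 and 2, against 6.65 and 3.10 in WT libraries 1 and 2. Ighm per Cd79a was 39.8 and 67.0 in KO libraries 1 and 2 and 36.9 and 42.3 in WT libraries 1 and 2. Igkc per Cd79a spread far more, with 189 and 68.4 in KO libraries 1 and 2 and 48.6 and 32.4 in WT libraries 1 and 2. Ighm and Igkc thus did not vary together, and other heavy chain genes were not part of these ratios. Ighm per summed light chain constant genes (Igkc, Iglc1, Iglc2 and Iglc3) was 0.192 and 0.943 in KO libraries 1 and 2 and 0.630 and 1.12 in WT libraries 1 and 2.

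The kappa and heavy chain segments with the most counts differed between the libraries. The V segments were looked at after their values were seen. Of 226 V segments in the table, 120 belong to the heavy chain, 103 to kappa and 3 to lambda, and their counts summed to 6657 and 1659 in KO libraries 1 and 2 and to 2111 and 1190 in WT libraries 1 and 2. In KO library 1 a single segment, Igkv5-39, held 2107 of 5128 kappa V counts, or 41.1% (95% exact binomial interval 39.7 to 42.4%). It held 3.11% in KO library 2, 1.77% in WT library 1 and 7.14% in WT library 2. In KO library 2 the leader was Igkv17-121, with 434 of 1221 counts, or 35.5% (32.9 to 38.3%), against 0.468% in KO library 1, 0.196% in WT library 1 and 0.363% in WT library 2. The leaders in WT libraries 1 and 2 were Igkv1-135 at 17.4% (15.55 to 19.4%) and Igkv1-117 at 13.1% (10.9 to 15.6%). Igkv1-135 also ranked second in KO library 2, with 172 counts or 14.1%. The leading kappa segment thus differed among the 4 libraries, while among the 3 lambda segments Iglv1 had the most counts in all of them. It held 63.9% and 51.9% in KO libraries 1 and 2 and 77.1% and 75.4% in WT libraries 1 and 2. In KO library 2 it had 28 counts against 25 for Iglv2, with overlapping intervals (37.8 to 65.7% and 32.6 to 60.4%).

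Heavy chain V segments were shared in part. Their counts summed to 989 and 384 in KO libraries 1 and 2 and to 396 and 234 in WT libraries 1 and 2. Igkc had the same order of libraries, with 6297 and 1385 counts in KO and 1630 and 882 in WT. Ighv1-71 led in KO library 1 with 236 of 989 counts, 23.9% (21.2 to 26.6%), and was counted 0 times in KO library 2 and had 13 and 1 counts in WT libraries 1 and 2. Ighv5-9-1 led in KO library 2 with 78 of 384 counts, 20.3% (16.4 to 24.7%), and was counted 0 times in KO library 1 and had 1 and 0 counts in WT libraries 1 and 2. Ighv1-80 and Ighv6-3 led in WT libraries 1 and 2 with 10.9% (7.97 to 14.3%) and 11.97% (8.10 to 16.8%). These intervals overlapped those of the runners-up, Ighv3-6 (6.23 to 12.1%) and Ighv1-39 (5.64 to 13.4%). Ighv1-80 held a higher share, 18.75%, in KO library 2, where its 72 counts came close to those of the leader. Near-identical V segments can share or lose reads in counting, so single segments are uncertain. Of 38 V segments tested, edgeR called 0 between KO and WT. DESeq2 called 2, Igkv17-121 (adjusted p = 1.47e-04) and Igkv4-59 (1.60e-05), where it called 0.558% of all genes. Igkv17-121 had 24 and 434 counts in KO libraries 1 and 2 and 3 in each WT library, so its difference came mostly from KO library 2. Igkv4-59 had 107 and 120 counts in KO libraries 1 and 2, against 12 and 14 in WT libraries 1 and 2, so it was higher in both KO animals.

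Classes of the heavy chain gave a like picture. Ighm made up 70.2% and 92.9% of the counts on heavy chain constant genes in KO libraries 1 and 2, and 91.6% and 97.4% in WT libraries 1 and 2. Ighg3, the constant gene of IgG3, had 2135 counts, or 24.3% (23.4 to 25.2%), in KO library 1 and 66, or 0.969%, in KO library 2, against 15 and 5 counts in WT libraries 1 and 2. KO library 2 held 318 counts of Ighg2b, 4.67% (4.18 to 5.20%), against 57 in KO library 1 and 200 and 9 in WT libraries 1 and 2. Igha, of IgA, had 270 and 11 counts in KO libraries 1 and 2 and 145 and 44 in WT libraries 1 and 2. Jchain, the joining chain of secreted IgM and IgA, had 89.8 and 10.9 CPM in KO libraries 1 and 2, against 27.8 and 9.54 CPM in WT libraries 1 and 2.

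**Figure D3:**
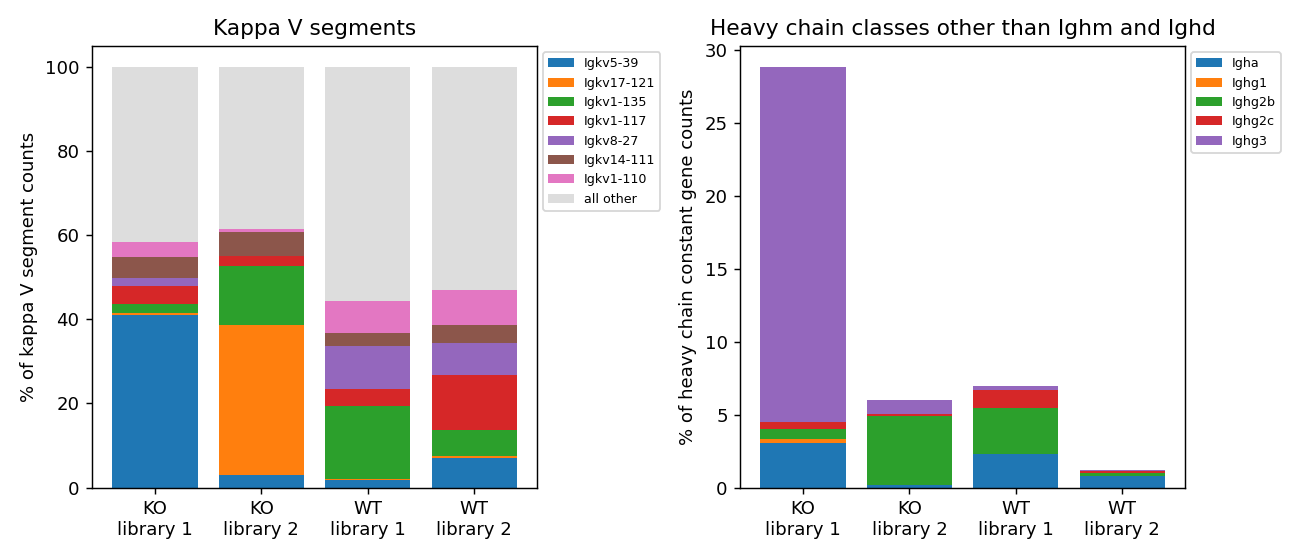
Left, percent of kappa V segment counts held by each segment that ranked first or second in any library, stacked, with all other segments in grey; right, percent of heavy chain constant gene counts in classes other than Ighm and Ighd. Bars run from KO to WT libraries; Igkv5-39 (41.1%) and Ighg3 (24.3%) take the widest bands in KO library 1, and Igkv17-121 (35.5%) in KO library 2.

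Of 12 plasma cell genes, 9 were tested and 0 were called by edgeR or DESeq2. Their median log2 fold change was 0.76, beside -0.01 for all genes, and it was -0.64 without KO library 1, 0.36 without KO library 2, 2.08 without WT library 1 and 0.12 without WT library 2. The 2 most abundant, Xbp1 and Prdm1, encode factors that drive plasma cell formation and serve other cells too. Xbp1 had 154 and 176 CPM in KO libraries 1 and 2 and 148 and 154 CPM in WT libraries 1 and 2, and Prdm1 77.4 and 124 CPM in KO and 98.7 and 166 CPM in WT. Neither followed Igkc over the libraries. The plasma cell surface genes Sdc1 and Tnfrsf17 stayed at 5 to 9 and 1 to 6 counts in KO libraries and 8 to 10 and 0 to 1 counts in WT libraries.

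Other B cell genes were mostly low, apart from Cd37 and Cd72. Of 20 further surface and signalling genes, all were tested and 0 were called by edgeR or DESeq2, with 11 higher and 9 lower in KO and a median log2 fold change of 0.05. That median was -0.52, with 3 of 20 higher, without KO library 1 and 0.53, with 16 of 20 higher, without KO library 2. It was 0.20 without WT library 1 and -0.05 without WT library 2. Their summed level was 562 to 563 CPM in KO libraries and 619 to 640 CPM in WT libraries, most of it from Cd37, a tetraspanin, at 419 to 462 CPM in KO and 500.0 to 510 CPM in WT, and Cd72, at 79.6 to 97.2 CPM in KO and 84.1 to 107 CPM in WT. The third most abundant, the lambda constant gene Iglc1, had 9.47 and 0.50 CPM in KO libraries 1 and 2 and 6.70 and 1.78 CPM in WT libraries 1 and 2. By library number, 12 of the 20 were higher in library 1 in both genotypes, with median log2 ratios of 0.98 in KO and 0.30 in WT. Cd22 and Cxcr5 were among those lower in library 1 of both genotypes. Their log2 ratios were -1.28 and -1.62 in KO and -0.68 and -1.04 in WT. Of 6 B cell transcription factors, Pax5 and Ebf1 stayed under the filter at 2 to 10 counts in KO and 2 to 8 counts in WT, none was at 0, and 0 of the 4 tested were called. Pou2f2, which encodes the factor OCT2, also ran against the members. It had 1.70 and 8.68 CPM in KO libraries 1 and 2 and 1.11 and 7.86 CPM in WT libraries 1 and 2. Spib had 3.78 and 1.50 CPM in KO and 2.40 and 1.17 CPM in WT, and Pou2af1 2.79 and 1.94 CPM in KO and 2.15 and 1.76 CPM in WT.

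The rest of the class II pathway did not move as a block. Of 15 further genes 14 were tested, 0 were called by edgeR or DESeq2, 5 were higher and 9 lower in KO, and the median log2 fold change was -0.07. That median was -0.54, with 4 of 14 higher, without KO library 1 and 0.39, with 9 of 14 higher, without KO library 2. Ciita, the coactivator of class II genes, was counted 29 and 22 times in KO libraries 1 and 2 and 19 and 23 times in WT libraries 1 and 2. H2-DMa, a chain of the peptide exchange factor H2-DM, had 44.4 and 28.4 CPM in KO libraries 1 and 2 and 39.3 and 31.1 CPM in WT libraries 1 and 2, and Ctss, the protease that trims the invariant chain, 73.8 and 48.9 CPM in KO and 67.1 and 41.3 CPM in WT. Both were less divided by library number than H2-Aa. Ctsh, also of this list, was more divided than H2-Aa, at 10.2-fold higher in library 1 in KO and 4.01-fold in WT. The 3 genes of this list with GCAAC followed by TGATTGG differed in this division. Library 1 over library 2 was 3.06-fold in KO and 1.81-fold in WT for H2-Oa and 1.66-fold and 1.54-fold for H2-Eb2. For H2-Ob it was 3.17-fold in KO and 0.80-fold in WT. Of the 14 tested, 7 were higher in library 1 in both genotypes. The RFX subunit gene Rfxap was at 26.0 to 27.5 CPM in KO and 26.0 to 30.2 CPM in WT, with no such division. The median log2 ratio of library 1 to library 2 was 0.83 in KO and 0.04 in WT for these genes, against 2.16 and 1.38 for the 4 class II members.

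Markers of other cells were set beside the members. Of 16 macrophage and monocyte markers, 14 were highest in KO library 1, none was at 0, and the median log2 ratio of library 1 to library 2 was 2.01 in KO and 0.71 in WT. Their summed level was 1897 and 1251 CPM in KO libraries 1 and 2 and 2189 and 1618 CPM in WT libraries 1 and 2. Most of it came from Ly6c2 and Ccr2, and the sum was highest in WT library 1, unlike 14 of the 16 markers. Lyz2, a lysozyme gene, had 257 and 18.6 CPM in KO libraries 1 and 2, against 92.7 and 3.31 CPM in WT libraries 1 and 2. Csf1r, the receptor gene that defines macrophages, had 24.1 and 6.46 CPM in KO libraries 1 and 2, against 14.0 and 7.64 CPM in WT libraries 1 and 2. Of 15 dendritic cell markers, 10 were highest in KO library 1, with a sum of 216 to 225 CPM in KO and 213 to 234 CPM in WT. Cst3, Runx2 and Tcf4 made up most of that sum, while Flt3, a receptor that defines dendritic cells, had 28 and 1 counts in KO libraries 1 and 2 and 13 and 1 counts in WT libraries 1 and 2. Clec4a4 was at 0 in both libraries numbered 2 and Clec9a in WT library 2. Siglech, a marker of plasmacytoid dendritic cells, was counted 13 times in each library numbered 1 and 0 times in each numbered 2. The part of macrophages and dendritic cells in the class II values was not tested.

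A further pair of marker lists was higher in KO, and their part in the values of the members was not tested. All 10 neutrophil markers were higher in KO, with a median log2 fold change of 4.56. It was 2.90 with 8 of 10 higher without KO library 1, 3.58 with 9 of 10 higher without WT library 2, and 7.84 without WT library 1. These markers summed to 97.6 to 450 CPM in KO and 1.83 to 37.1 CPM in WT. S100a8 had 118 and 22.3 CPM in KO libraries 1 and 2 and 9.93 and 0.69 CPM in WT libraries 1 and 2. All 7 erythroid markers were higher (median 2.35, or 1.62 with 6 of 7 higher without KO library 1; sums of 126 to 210 CPM in KO and 28.6 to 38.3 CPM in WT). edgeR called none of these, nor any other gene tested, and DESeq2 called 3 of each list, against 0.558% of all genes. T cell markers summed to 163 to 309 CPM in KO and 176 to 230 CPM in WT, and 9 of 12 were highest in WT library 1. The defining gene Cd3e had 7 to 22 counts in KO and 13 to 18 counts in WT. Trac, the constant gene of the T cell receptor alpha chain, had 93.9 and 36.0 CPM in KO libraries 1 and 2, against 5.87 and 8.30 CPM in WT libraries 1 and 2, and was the 1 marker of this list that DESeq2 called, while edgeR called 0. Of the neutrophil markers 8 had both KO libraries above both WT libraries, and of the erythroid markers 6, against 9.64% of the genes tested. None of the 9 members had this.

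**Figure D4:**
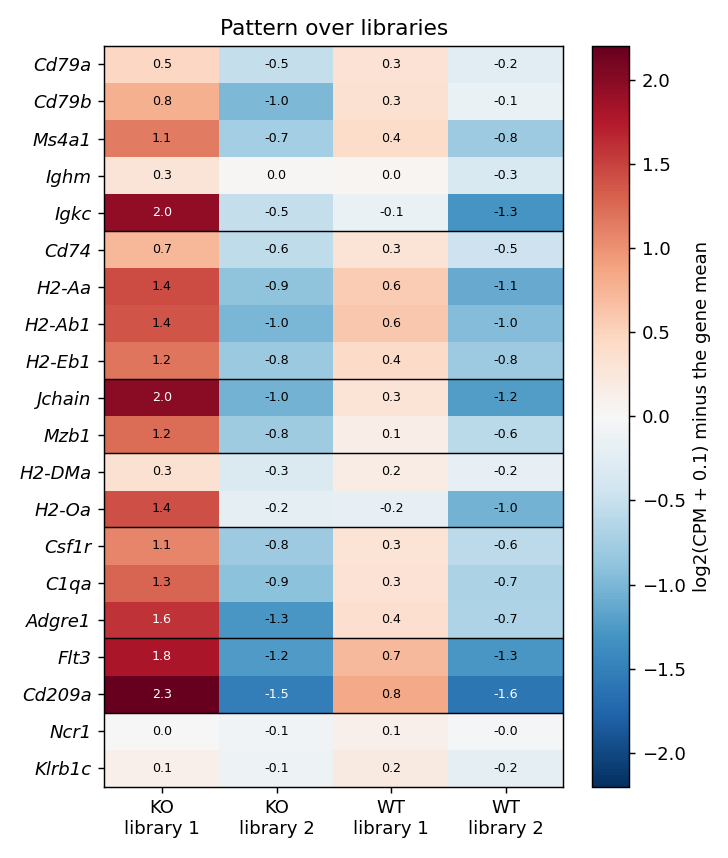
Log2 of CPM plus 0.1 in each library, centred on the gene's mean over the 4 libraries, for the 5 B cell and 4 class II members (top 2 blocks) and, chosen after their values were seen, for plasma cell, other class II, macrophage, dendritic and NK cell genes below them. H2-Aa, H2-Ab1 and H2-Eb1 run from 1.2 to 1.4 in KO library 1 to -0.8 to -1.1 in the libraries numbered 2, while Ncr1 and Klrb1c stay between -0.2 and 0.2.

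Over the 4 libraries, the pattern of each gene was compared with that of Cd79a and of H2-Aa by the Euclidean distance between centred log2 levels, among 11015 genes with a mean of at least 1 CPM. Nearest to H2-Aa were Pld4 (distance 0.155), Pilra (0.224), Clec4n (0.249), Hfe (0.267) and Fcgr4 (0.27). Pld4 had 8.28 and 1.75 CPM in KO libraries 1 and 2, against 5.14 and 1.40 CPM in WT libraries 1 and 2. The member H2-Ab1 lay at 0.191 from H2-Aa, H2-Eb1 at 0.428 and Ms4a1 at 0.480, while Cd79a lay at 1.38 and Ighm at 1.74. Nearest to Cd79a were Ss18l2 (0.0356), Glod4 (0.0491), Acp1 (0.0647), Prdx5 (0.0659) and Arhgap15 (0.0748). Glod4 had 89.9 and 45.8 CPM in KO libraries 1 and 2 and 83.7 and 58.2 CPM in WT libraries 1 and 2, far above Cd79a in level. Closer to Cd79a than its partner Cd79b (0.567) were 2417 genes, whereas 1 gene lay closer to H2-Aa than H2-Ab1 did. These counts were taken at unlike distances, 0.567 and 0.191, and Cd79a varied less over the libraries than H2-Aa. They therefore do not tell which pattern is the more common. Distances over 4 libraries describe likeness only.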

How the data were processed

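RNA of sorted spleen NK cells was sequenced in 4 libraries, 2 KO and 2 WT, from 200 ng of total RNA with a TruSeq preparation and paired-end reads, per the labels' protocols. The deposited values are counts of reads per Entrez gene, with a gene length beside them as another column, per the file headers. The submitters' processing notes name featureCounts and the mm10 build. The aligner, annotation, versions and strand setting are not given in the sources used here. Of 26611 genes, 95.0% matched a symbol in a RefSeq table of GRCm38.p6, and the series table held the same counts as the single files.

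edgeR 4.0.16 in R 4.3.3 kept 12723 genes (filterByExpr, minimum count 10) and tested KO against WT with TMM factors and genotype as the only term, all two-sided. DESeq2 1.42.0 and limma 3.58.1 (voom) served as alternatives. Levels are TMM-scaled CPM, and ratios between single libraries use CPM plus 0.1. A standard error is the size of the fold change over the root of its F value. Each test was run on counts simulated without an effect of library number, so that run does not cover such an effect. Marker lists are described by counts and medians, without a set test, and no test compares libraries by number. The members, lists and tests were chosen with earlier results of these data known. Beside the members, named genes were the 3 most abundant of each list, those with both KO libraries beyond 2-fold of both WT libraries, and the 5 nearest in pattern. Of the neutrophil, erythroid, T and NK cell lists, examples stand for the rest. Other genes were named after their values were seen. Animals were separate, and intervals cover counting error only.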

Additional observations from a re-analysis of the deposited data

How the results depend on the processing

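No member was called under any alternative run. Over all genes the count of calls was 0 in edgeR and in voom, 35 with no filter on low counts, 71 with DESeq2 and 221 with the replicate number as a block. Leaving out 1 library gave 0 to 38 calls, with 16 without KO library 1 and 38 without KO library 2. Voom gave Cd79b a log2 fold change of -0.24 and the block one of -0.18, against 0.04. With the block, Ighm, Igkc and H2-Aa had an unadjusted p under 0.05, as had 10.8% of all genes. The differences between libraries 1 and 2 of KO and of WT correlated across genes (Pearson's r = 0.743 over 12723 genes), but the labels do not say that a number pairs animals, and 2 pairs cannot settle it.

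With 1 library left out, the log2 fold change ranged from -0.62 to 0.43 for Cd79a, -1.13 to 0.71 for Cd79b, -0.68 to 1.32 for Ms4a1, -0.54 to 0.79 for Cd74, -0.85 to 1.81 for H2-Aa, -1.03 to 1.60 for H2-Ab1 and -0.76 to 1.31 for H2-Eb1. The member medians ranged from -0.62 to 0.71 (B cell) and -0.80 to 1.46 (class II). The low ends came without KO library 1. In those fits a genotype with 1 library is assumed to vary like the other. Ighm and Igkc kept a positive sign throughout. Requiring 5 CPM in 2 libraries left out Cd79a and Ms4a1. With 1 CPM added to the ratios by library number, 4 rather than 5 members were at least 2-fold higher in library 1 in both genotypes. At 69 to 231 counts, Cd79a, Cd79b and Ms4a1 are the members whose ratios depth limits most.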
